A study of Mus musculus with 15 samples.

Results

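C-type lectin receptors are proteins that bind sugars on microbes and on host glycoproteins, and 10 of their genes were followed through macrophages sorted from mouse ear skin. The genes were taken by name, with earlier results of these data known: the mannose receptor Mrc1, the Cd209 family members Cd209a, Cd209b, Cd209d, Cd209f and Cd209g, the galactose-type lectins Mgl2 and Clec10a, and the signalling receptors Clec7a and Clec12a. All 10 were found by exact name among 42454 genes in the table, and 9 of them were among the 8656 genes that had a mean deposited value of 100 or more and were tested. Clec10a was the member that did not reach that level.

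The study made 15 RNA-seq libraries in 5 groups of 3. All mice carried CX3CR1-creERT2/gfp and R26-tdT/+, alleles that mark cells expressing Cx3cr1 with GFP and, once tamoxifen has activated the recombinase, mark them and their descendants with Tomato. All mice received tamoxifen, the left ear was punched 3 weeks later, and skin was collected 10 days after the punch, with the unpunched right ear as the homeostatic tissue. Cells that were CD11b+, CD64+ and Lin- were sorted by their reporters. The groups were recruited nerve-associated macrophages of the punched ear (recNAM, gate GFP+/Tomato-), resident nerve-associated macrophages of the punched ear (injNAM) and of the unpunched ear (sNAM, gate GFP+/Tomato+), and interstitial macrophages of the punched ear (injIM) and of the unpunched ear (IM, gate GFP-/Tomato-). The libraries came from 3 mice and are not tied to single mice in the labels, so p-values measure the spread between libraries. No age or sex of the mice is stated in the labels. Within the labels, the genotype is written with Cxcr1 and the protocol with CX3CR1. The reporter entry is GFP+/Tomato+ for injIM and GFP-/Tomato- for sNAM, against their gates, and groups were taken from the titles.

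The receptors differ in what they do after binding. Mrc1 and the Cd209 proteins take up mannose-rich and fucose-bearing ligands, and Mrc1 is widely used as a marker of tissue-resident macrophages in the skin dermis. Mgl2 and Clec10a bind galactose and N-acetylgalactosamine. Clec7a, also called dectin-1, binds fungal beta-glucan and signals through the kinase Syk and the adaptor Card9, whereas Clec12a carries an inhibitory motif that recruits phosphatases such as the one encoded by Ptpn6.

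The libraries differed in quality between groups. Recovered depth was 5636251 to 18632984 reads in sNAM, with 3.89% to 25.8% of the tested genes lacking a read, and 16889283 to 23794162 reads in the other groups, with 4.26% to 8.79% lacking one in injNAM and at most 0.751% in recNAM, injIM and IM. Libraries of 1 group correlated at 0.644 to 0.776 in sNAM and 0.762 to 0.772 in injNAM, and at 0.934 to 0.983 in recNAM, injIM and IM, so a gene at 0 in an sNAM or injNAM library may have been missed. The 9 macrophage markers were Adgre1, Csf1r, Fcgr1, Mertk, Cd68, Itgam, C1qa, C1qb and C1qc. They were summed as CPM (a list's share of the recovered reads, scaled to a common library total). The sums were 14700 to 16600 CPM in recNAM, 11800 to 14000 in injNAM, 10900 to 13600 in sNAM, 14800 to 15200 in injIM and 17100 to 17900 in IM. Every IM library lay above every library of the other groups. None of the 9 was at 0 throughout a group. The 12 dendritic cell markers summed to 298 to 491 CPM in recNAM, 365 to 886 in injNAM, 1620 to 2610 in sNAM, 94.4 to 121 in injIM and 122 to 158 in IM. The 7 T and NK cell markers summed to 19.3 to 454 CPM in injNAM and 9.58 to 393 in sNAM, against at most 10.7 in any other library. In sorted bulk samples, fewer cells of a type and less RNA per cell cannot be told apart.

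The Cd209 members lie together on chromosome 8 of GRCm38, Cd209a at chr8:3743395-3748984, Cd209d at chr8:3871824-3878548, Cd209b at chr8:3917655-3926841, Cd209f at chr8:4102784-4105838 and Cd209g at chr8:4134246-4137707. Clec12a at chr6:129349783-129365303 and Clec7a at chr6:129461591-129472785 are neighbours on chromosome 6, and Mgl2 at chr11:70130125-70137542 and Clec10a at chr11:70166623-70170836 are neighbours on chromosome 11. Mrc1 lies at chr2:14229414-14332023 and holds the microRNA gene Mir511. Cd209f and Cd209g are close copies: of the 50-base stretches in their GENCODE M21 transcripts, 29.8% of those of Cd209f and 16.6% of those of Cd209g also occur in the other gene, so reads could have been split between them and the values of both are uncertain. Mgl2 and Clec10a share 12.2% and 8.49% of their stretches in the same way, and their values carry the same doubt. Mrc1, Cd209a, Cd209b, Cd209d and Clec7a shared no such stretch with any other gene. In RefSeq, Clec7a overlaps Gm45969 and Mgl2 overlaps Gm12311, so reads in the overlaps could belong to either gene.

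The likeness of Cd209f and Cd209g reaches the sequence before a transcript start. In RefSeq's GRCm38.p6 windows of 250 bases before the start of 1 annotated transcript of each gene, both hold 1 identical run of 154 bases, and the 2 windows are shown because both genes were low in the same groups below. Bases that GENCODE places in an untranslated region are left out, and capitals mark the part of the run that remains. The Cd209f window is chr8:4105836-4106014 on the minus strand, and the Cd209g window is chr8:4134486-4134651 on the plus strand. The Cd209g window lies within the gene span given above, so it is not sequence upstream of the whole gene, and the Cd209f window reaches into the end of that gene's span.
Cd209f: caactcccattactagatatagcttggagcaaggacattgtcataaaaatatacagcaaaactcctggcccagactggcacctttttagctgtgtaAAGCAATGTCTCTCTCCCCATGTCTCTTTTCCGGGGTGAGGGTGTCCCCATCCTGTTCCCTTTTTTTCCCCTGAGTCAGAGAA
Cd209g: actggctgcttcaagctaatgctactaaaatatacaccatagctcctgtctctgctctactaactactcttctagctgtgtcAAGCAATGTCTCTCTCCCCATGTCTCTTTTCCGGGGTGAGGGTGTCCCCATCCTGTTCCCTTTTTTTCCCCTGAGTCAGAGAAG

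Short letter runs were then looked for in the windows of the 9 members that RefSeq's table holds. The letters CCGGAA, on either strand, occurred in 4 of 9 windows, those of Cd209a, Cd209b, Cd209f and Cd209g, against 12.0% of 32851 windows of all genes. The letters GAGGAA, on either strand, occurred in 5 of 9 windows, those of Mrc1, Cd209d, Clec7a, Clec12a and Mgl2, against 23.3% of all windows. The runs were chosen after the windows had been read, and Cd209f and Cd209g hold the same match in their shared run. The windows of all these members but Cd209a and Clec7a reach into bases that GENCODE places in an untranslated region. The Clec7a window reaches into the end of the Clec7a gene span given above. For these reasons the matches are descriptions of letters and not of binding sites. The windows of Mrc1 (chr2:14229214-14229391, plus strand), Cd209a (chr8:3748985-3749184, minus strand), Cd209b (chr8:3926845-3927041, minus strand) and Clec7a (chr6:129472780-129472979, minus strand) show both letter runs in capitals for members that differed between the groups in opposite directions.
Mrc1: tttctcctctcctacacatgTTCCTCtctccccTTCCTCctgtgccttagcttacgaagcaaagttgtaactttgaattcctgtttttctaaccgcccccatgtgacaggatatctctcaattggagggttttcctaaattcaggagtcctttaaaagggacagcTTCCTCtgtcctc
Cd209a: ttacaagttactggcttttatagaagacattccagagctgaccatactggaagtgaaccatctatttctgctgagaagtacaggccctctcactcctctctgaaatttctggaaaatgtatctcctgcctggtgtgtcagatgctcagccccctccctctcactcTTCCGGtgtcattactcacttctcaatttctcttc
Cd209b: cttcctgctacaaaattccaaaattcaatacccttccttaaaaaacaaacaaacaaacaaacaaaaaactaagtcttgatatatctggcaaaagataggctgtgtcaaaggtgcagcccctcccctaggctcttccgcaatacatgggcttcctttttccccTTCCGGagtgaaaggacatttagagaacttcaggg
Clec7a: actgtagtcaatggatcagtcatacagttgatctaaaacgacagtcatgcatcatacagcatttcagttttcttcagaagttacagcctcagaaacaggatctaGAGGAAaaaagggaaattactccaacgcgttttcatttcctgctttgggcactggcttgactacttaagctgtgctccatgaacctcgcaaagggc

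**Figure D1:**
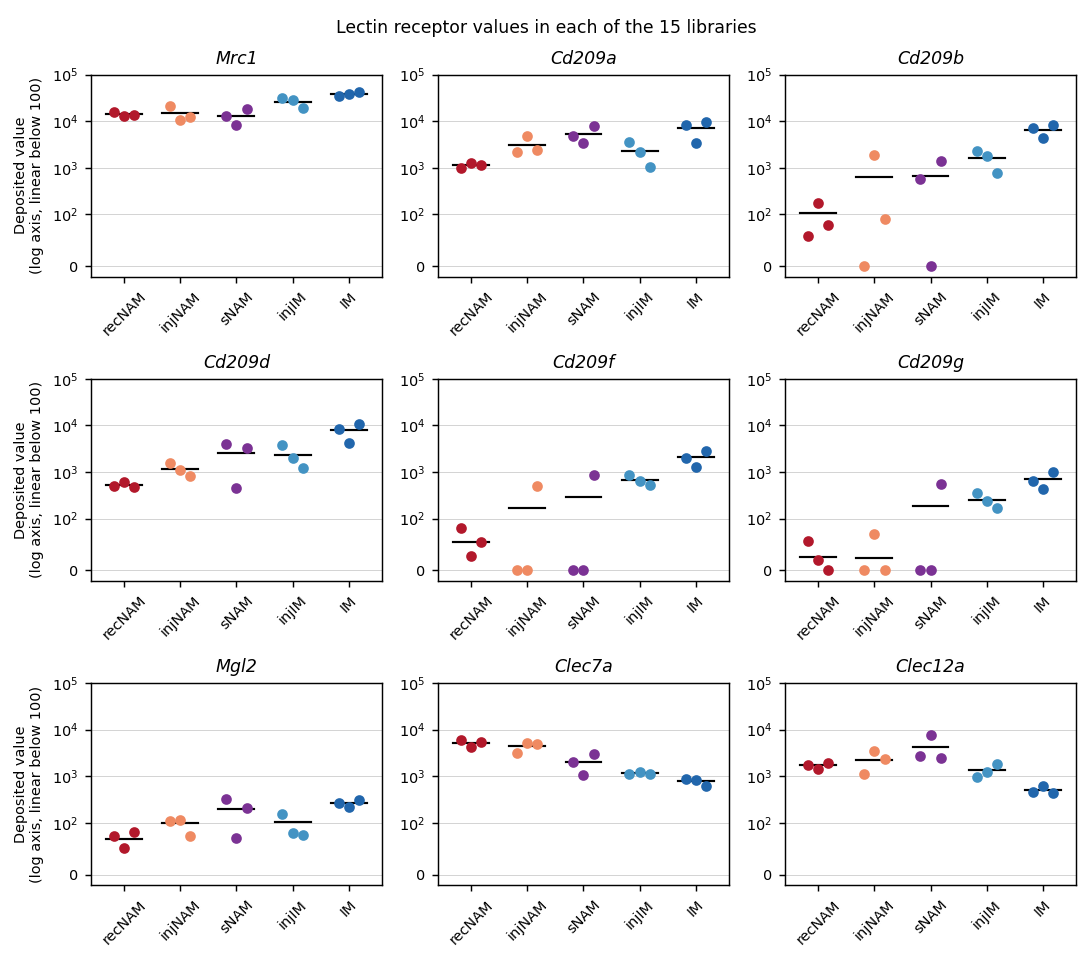
Deposited value of each of the 9 tested receptors (vertical axis, log scale above 100 and linear below) in each of 3 libraries of recNAM, injNAM, sNAM, injIM and IM (horizontal axis), with black bars at group means. Mrc1 and the Cd209 genes have their highest group mean in IM, Clec7a in recNAM and Clec12a in sNAM, and several sNAM and injNAM libraries lie at 0 for Cd209b, Cd209f and Cd209g.

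Values below are the deposited normalised read counts. Tests used limma on log2(value + 100), which understates the change of genes at low values, and a gene was called when its Benjamini-Hochberg adjusted p over all 8656 tested genes was under 0.05. After injury, interstitial macrophages had less Mrc1, less of all 5 Cd209 members and less Mgl2, and more Clec7a and more Clec12a. In injIM against IM all 9 tested members were called, 7 lower and 2 higher, against 8.18% of all tested genes called in that comparison, 4.03% lower and 4.15% higher. The median log2 difference of the 9 was -1.12, beside 0.03 for all tested genes. The libraries of the 2 groups did not overlap for 6 members that were lower and 2 that were higher, against 11.4% and 13.5% of all genes. Recruited nerve-associated macrophages had still less Mrc1 and Cd209b, Cd209d, Cd209f and Cd209g than injIM, and more Clec7a. In recNAM against injIM 6 of 9 were called, 5 lower and 1 higher, against 7.53% of all genes, 4.34% lower and 3.19% higher, with a median of -0.88 beside -0.02. Groups did not overlap for 5 members that were lower and 1 that was higher there, against 12.5% and 11.4% of all genes. Cell type markers were also compared between injIM and IM. The 9 macrophage markers summed to 14800 to 15200 CPM in injIM and 17100 to 17900 in IM, without overlap. The 8 mast cell markers summed to 247 to 267 CPM in injIM and 543 to 707 in IM. The 12 dendritic cell markers summed to 94.4 to 121 in injIM and 122 to 158 in IM, where Btla was at 0 throughout. The 7 monocyte markers (180 to 275 in injIM and 27.3 to 269 in IM) overlapped. So did the 6 fibroblast markers (275 to 1050 in injIM and 253 to 438 in IM). No mast cell, monocyte or fibroblast marker was at 0 throughout either group. Between recNAM and injIM the fibroblast markers summed to 44.3 to 263 CPM in recNAM and 275 to 1050 in injIM, with none at 0 throughout either group. The part of these markers in the results was not tested.

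The resident nerve-associated groups gave few calls. In sNAM against IM 1 of 9 was called, Clec12a, higher, against 1.05% of all genes, 0.543% of them higher, and in injNAM against injIM 1 of 9, Clec7a, higher, against 0.485%, 0.243% of them higher. Groups did not overlap for 4 members that were lower and 2 that were higher in sNAM against IM (18.4% and 9.57% of all genes), and for 2 that were lower and 1 that was higher in injNAM against injIM (12% and 8.92%). In injNAM against sNAM, in recNAM against injNAM and in the difference between the injury responses of sNAM and IM, none of the 9 was called, against 0% of all genes. At an unadjusted p under 0.05 these 3 comparisons gave 1, 0 and 1 of the 9 members, against 6.77%, 7.15% and 5.13% of all genes. DESeq2 on recovered reads called 1, 0 and 1, against 13.5%, 6.58% and 6.17%, and edgeR on the same reads called 0 in each, against 0.812%, 0% and 0.0512%.

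**Figure D2:**
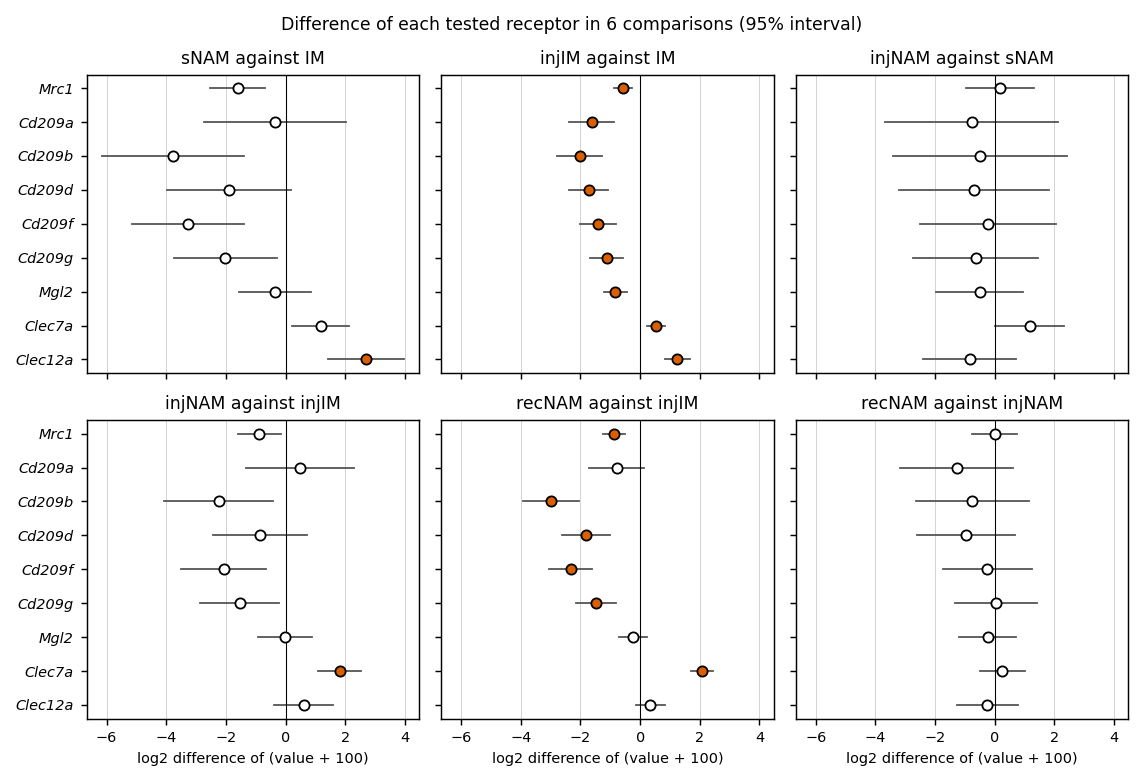
Log2 difference of (value + 100) for each of the 9 tested receptors (rows) in 6 comparisons (panels), with points at the limma estimate, lines for the 95% interval and filled points for adjusted p under 0.05. All 9 points are filled for injIM against IM and 6 for recNAM against injIM, and the intervals are wider wherever sNAM or injNAM take part.

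Many of these calls were lost under other settings. With 1 spread pooled over the 5 groups, the calls in injIM against IM were 0 of 9 (0.208% of all genes), and edgeR and DESeq2 on recovered reads also gave 0 (0.0219% and 0.508%). Fits on those 6 libraries alone, which were chosen after seeing the data, called 3 of 9 with edgeR (2.88% of all genes) and 5 of 9 with limma (6.02%). For recNAM against injIM the pooled spread, edgeR and DESeq2 each kept 1 call, Clec7a (0.254%, 0.0731% and 1.44% of all genes), and the fits on the 2 groups alone called 4 with edgeR (2.12%) and 6 with limma (5.48%). With the group weights kept but no filter on low values, 2 of 9 were called in injIM against IM. The same setting called 3 of 9 in recNAM against injIM. Over all genes it called 315 and 362, against 708 and 652 with the filter. Directions did not change in either comparison under these settings, and the cause of the losses was not tested. In sNAM against IM the count of 1 was 5 with the pooled spread (8.4% of all genes), 2 with edgeR (2.68%), 3 with DESeq2 (14.6%), 0 with edgeR on the 2 groups alone (0.0439%) and 2 with limma on them (1.83%), and in injNAM against injIM the fits on the 2 groups alone gave 0 (0% with edgeR and 0.0809% with limma).

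Mrc1, the endocytic mannose receptor, was highest by value in IM and lowest in the nerve-associated groups. It had 15540, 13030 and 13470 in recNAM, 20800, 10550 and 12540 in injNAM, 13010, 8419 and 17800 in sNAM, 30980, 28230 and 19590 in injIM and 34980, 37370 and 42860 in IM. The 3 nerve-associated groups lay together at the low end, and recNAM did not overlap injIM, nor injIM IM. Mrc1 fell in injIM against IM, with 26270 ± 5950 in injIM and 38400 ± 4040 in IM (SD, n = 3 each) and a log2 difference of -0.57 (SE 0.14, adjusted p = 0.0153). That call ended without IM replicate 3 (adjusted p = 0.106), and without injIM replicate 3 the difference was -0.37 (adjusted p = 0.041). The call also ended in both fits on the 2 groups alone (adjusted p = 0.144 with edgeR and 0.0925 with limma). Mrc1 also fell to 14010 ± 1340 in recNAM, against 26270 ± 5950 in injIM, a log2 difference of -0.88 (SE 0.17, adjusted p = 0.00313). This recNAM call ended with edgeR on the 2 groups alone. In sNAM against IM the difference of -1.61 (SE 0.45) was larger but did not pass (adjusted p = 0.083), although the groups did not overlap. It passed with the pooled spread (adjusted p = 0.00283), edgeR (0.00922), DESeq2 (0.000217) and limma on the 2 groups alone (0.048). It did not pass with edgeR on the 2 groups alone (adjusted p = 0.0777) or, with limma, a pseudocount of 10 (0.191). Nor did it without the filter on low values (0.095), with TMM factors (0.072) or with a replicate block (0.0859). In injNAM against injIM the difference was -0.87 (adjusted p = 0.297), and the groups overlapped.

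Cd209b, the receptor also called SIGNR1 that binds bacterial and fungal polysaccharides, was lower in recNAM than in injIM and lower in injIM than in IM. It had 59.17, 175.5 and 79.89 in recNAM, 0, 1843 and 91.63 in injNAM, 580, 0 and 1425 in sNAM, 2337, 1782 and 757.7 in injIM and 7009, 4390 and 8242 in IM. The recNAM, injIM and IM libraries formed 3 separate levels, and the injNAM and sNAM libraries scattered from 0 up to the injIM level. Cd209b fell in injIM against IM, with 1626 ± 801 in injIM and 6547 ± 1970 in IM, a log2 difference of -2.03 (SE 0.36, adjusted p = 0.0012). It fell further in recNAM against injIM, to 104.9 ± 62.0 in recNAM against 1626 ± 801 in injIM, a mean 15.5-fold lower (23.4-fold without recNAM replicate 2) and a log2 difference of -2.99 (SE 0.45, adjusted p = 0.00026). Both calls held when any 1 library was left out and in both fits on the 2 groups alone. In sNAM the mean was 668.2 ± 716 against 6547 ± 1970 in IM, with no overlap, and the difference of -3.78 (SE 1.14) did not pass (adjusted p = 0.114).

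Cd209d, called SIGNR3 and known to bind mycobacteria, and Cd209a, the mouse receptor named after human DC-SIGN, had the highest levels per length in the family. Cd209d had 510.8, 602.1 and 466.9 in recNAM, 1550, 1122 and 803.3 in injNAM, 3921, 454.1 and 3325 in sNAM, 3712, 2027 and 1244 in injIM and 8389, 4140 and 10800 in IM. Cd209a had 1008, 1258 and 1170 in recNAM, 2134, 4717 and 2387 in injNAM, 4750, 3333 and 7999 in sNAM, 3573, 2228 and 1047 in injIM and 8134, 3384 and 9820 in IM. Cd209d was lower in every injIM library than in any IM library, whereas for Cd209a injIM replicate 1 exceeded IM replicate 2. Cd209d fell in injIM against IM by 1.72 on the log2 scale (SE 0.31, adjusted p = 0.00144) and Cd209a fell by 1.62 (SE 0.36, adjusted p = 0.00864). Both calls ended in the fits on the 2 groups alone. For Cd209d the adjusted p was 0.0712 with edgeR and 0.0741 with limma, and for Cd209a 0.121 and 0.172. Cd209d fell in recNAM too, with 526.6 ± 69.0 in recNAM and 2328 ± 1260 in injIM (log2 difference -1.83, SE 0.39, adjusted p = 0.005), but the call ended without recNAM replicate 1 (adjusted p = 0.0685). Cd209a did not pass there, with 1145 ± 127 in recNAM and 2283 ± 1260 in injIM (log2 difference -0.79, SE 0.44, adjusted p = 0.365), although without injIM replicate 3 it did (-1.24, adjusted p = 0.0256), and the difference ran from -1.24 to -0.40 as each library was left out in turn. In sNAM against IM the differences were -1.89 for Cd209d (adjusted p = 0.386) and -0.36 for Cd209a (adjusted p = 0.925), and for Cd209a the groups overlapped.

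Cd209f and Cd209g, called SIGNR8 and SIGNR7, had lower levels per length. Cd209f had 82.53, 28.08 and 54.24 in recNAM, 1.76, 0 and 501 in injNAM, 0, 0 and 877 in sNAM, 868.2, 652.3 and 533 in injIM and 2013, 1297 and 2888 in IM. Cd209g had 57.62, 21.06 and 0 in recNAM, 0, 70.6 and 0 in injNAM, 0, 0 and 551.4 in sNAM, 360.6, 243.6 and 166.3 in injIM and 638.5, 428.9 and 1012 in IM. For both genes all recNAM libraries were below all injIM libraries and those below all IM libraries, and apart from 1 recNAM library for Cd209g the libraries at 0 belonged to sNAM and injNAM. In injIM against IM Cd209f fell by 1.42 (SE 0.28, adjusted p = 0.00323) and Cd209g by 1.12 (SE 0.26, adjusted p = 0.0101) on the log2 scale. The Cd209g call ended without IM replicate 3 (adjusted p = 0.0903) and with edgeR on the 2 groups alone (0.0685). Between recNAM and injIM Cd209f fell by 2.33 (SE 0.35, adjusted p = 0.000261) and Cd209g by 1.49 (SE 0.32, adjusted p = 0.00591). There too the Cd209g call ended with edgeR on the 2 groups alone. Neither gene passed in sNAM against IM, at -3.27 for Cd209f (adjusted p = 0.0784) and -2.02 for Cd209g (adjusted p = 0.252), and without IM replicate 2 Cd209f did pass (adjusted p = 0.0387).

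The make-up of the 5 Cd209 members differed along with their sum, which leaves out Cd209c and Cd209e. Per kilobase of exon, the 5 Cd209 members summed to 1278 to 1553 in recNAM, 2677 to 5092 in injNAM, 2600 to 9938 in sNAM, 2688 to 7938 in injIM and 9489 to 23580 in IM. Cd209a made up 49.8% to 56.3% of that sum in recNAM, 44.4% to 58.5% in injNAM and 39.8% to 81.0% in sNAM, against 24.6% to 29.0% in injIM and 22.5% to 27.4% in IM. All 9 nerve-associated libraries therefore lay above all 6 interstitial ones for this share. Cd209b made up 2.19% to 5.34% in recNAM, 0% to 17.1% in injNAM and 0% to 6.78% in sNAM, against 13.3% to 17.4% in injIM and 16.5% to 21.9% in IM. The 17.1% of injNAM replicate 2 lay at the level of the interstitial libraries. Within interstitial macrophages the shares of Cd209a overlapped between injIM and IM, while the summed level did not. These shares are given as a description, with no test, and in sNAM and injNAM libraries they rest on genes that were at 0 in some of them. In sNAM replicate 2, Cd209e was at 1760 per kilobase, beside 2110 for Cd209a and 2600 for the sum. The Cd209a share of 81.0% there would therefore be lower with Cd209e counted.

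**Figure D3:**
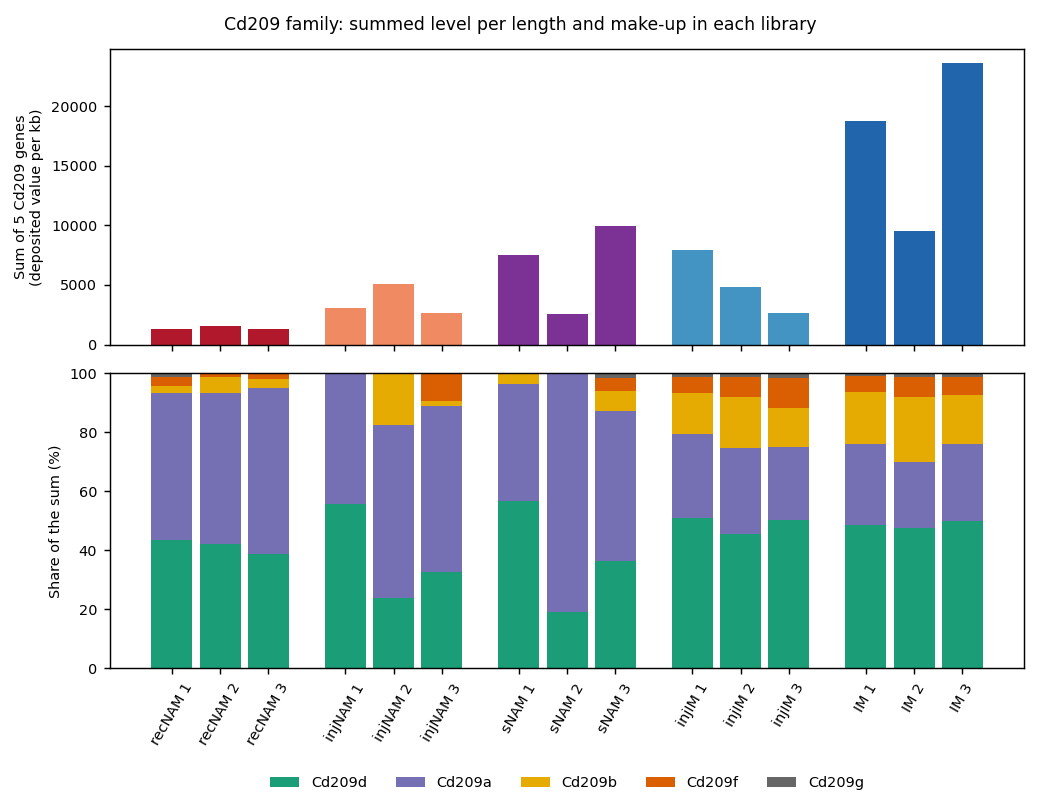
Sum of the 5 Cd209 members per kilobase of exon (upper panel, deposited value per kb) and share of each member in that sum (lower panel, percent) in each of the 15 libraries, with the 3 libraries of each group side by side. The Cd209a share is 39.8% or more in every recNAM, injNAM and sNAM library and 29.0% or less in every injIM and IM library.

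Of the other Cd209 genes, Cd209c and Cd209e were tested. Cd209c fell in injIM, to 41.33 ± 17.8 against 134.3 ± 15.7 in IM (log2 difference -0.73, SE 0.17, adjusted p = 0.0105), and 15.7% of its transcript stretches occur in other genes. Without IM replicate 1 the call ended. By value Cd209c was highest in sNAM, at 240.4 ± 182, with 172.3 ± 96.3 in injNAM and 24.88 ± 6.88 in recNAM. It exceeded injIM in injNAM without overlap, as did 8.92% of all genes, but the difference of 0.89 did not pass (adjusted p = 0.417). Cd209e was highest in sNAM, with 1280, 3176 and 723.4 against 706, 335.4 and 721.8 in IM, but the difference of 1.23 did not pass (adjusted p = 0.537).

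Mgl2, a galactose-type lectin also found on dermal dendritic cells, had levels per length of at most 125 ± 20.4, the mean in IM. Its values were 74.75, 51.48 and 82.82 in recNAM, 108.3, 114.7 and 75.36 in injNAM, 327.6, 69.86 and 205.4 in sNAM, 154.4, 80.12 and 77.44 in injIM and 262.7, 217 and 302.5 in IM. All injIM libraries were below all IM libraries, and the other groups overlapped those they were compared with. Mgl2 fell in injIM, to 104.0 ± 43.7 against 260.7 ± 42.8 in IM (log2 difference -0.84, SE 0.18, adjusted p = 0.00592). That call ended with edgeR on the 2 groups alone (adjusted p = 0.0715). Mgl2 did not pass in recNAM against injIM (-0.25, adjusted p = 0.622) or in sNAM against IM (-0.35, adjusted p = 0.83). Its paralogue Clec10a had 1 read in injNAM replicate 3 and was at 0 in the other 14 libraries, where a count of 0 allows up to 3 reads, or a value of 2.19 to 8.73. The limit covers counting error alone, since reads amplified by PCR are not independent molecules.

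Clec7a, the beta-glucan receptor, ran against the mannose receptor and was highest in the nerve-associated groups of the punched ear. It had 6100, 4211 and 5536 in recNAM, 3216, 5187 and 4909 in injNAM, 2060, 1048 and 2979 in sNAM, 1124, 1229 and 1137 in injIM and 874.1, 843.9 and 619.8 in IM. Every recNAM and injNAM library exceeded every sNAM, injIM and IM library, the means of recNAM and injNAM did not differ beyond their spread, and those of sNAM and injIM did not either. Clec7a rose in recNAM, to 5282 ± 970 against 1163 ± 57.4 in injIM, 4.54-fold by means and 2.08 on the log2 scale (SE 0.18, adjusted p = 8.81e-07). It was called in that comparison under all 24 alternatives. It also rose in injNAM, to 4437 ± 1070 against 1163 ± 57.4 in injIM (log2 difference 1.82, SE 0.35, adjusted p = 0.0233), although the call ended when any 1 of the injNAM replicates 1, 2 and 3 was left out (adjusted p = 0.0874, 0.0884 and 0.153) and in both fits on the 2 groups alone (0.0577 with edgeR and 0.0571 with limma). The rise in injIM against IM was smaller, at 0.53 (SE 0.14, adjusted p = 0.0246). Its call ended without IM replicate 3 (0.176), injIM replicate 1 (0.0886) or injIM replicate 2 (0.101). It also ended in both fits on the 2 groups alone (0.148 with edgeR and 0.086 with limma).

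Clec7a was also higher by value in injNAM than in sNAM, without overlap, as were 7.35% of all genes. The means were 4437 ± 1070 in injNAM and 2029 ± 966 in sNAM, and the log2 difference of 1.17 (SE 0.55) had an adjusted p of 0.738 with limma and of 0.0238 with DESeq2. For sNAM against IM the difference was 1.18 (SE 0.45, adjusted p = 0.22). Markers of other cells moved with these results: the dendritic cell list was at 298 to 491 CPM in recNAM and 365 to 886 in injNAM, against 94.4 to 121 in injIM, and of its 12 genes Btla was at 0 throughout recNAM and Clec9a and Kmo throughout injNAM. The 7 monocyte markers summed to 286 to 725 CPM in recNAM, against 180 to 275 in injIM, with none at 0 throughout either group. Their part in the result was not tested.

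Clec12a, the inhibitory receptor, was lowest in IM and highest in sNAM. It had 1760, 1436 and 1935 in recNAM, 1089, 3396 and 2290 in injNAM, 2767, 7810 and 2420 in sNAM, 976.6, 1244 and 1862 in injIM and 461.1, 610.1 and 431.3 in IM. All libraries of the other groups exceeded all IM libraries, and the means of recNAM, injNAM, sNAM and injIM followed each other within their spread. Clec12a rose in injIM, to 1361 ± 454 against 500.9 ± 95.8 in IM, 2.72-fold by means and 1.25 on the log2 scale (SE 0.19, adjusted p = 0.000325), and the call held when any 1 library was left out and in both fits on the 2 groups alone. It rose in sNAM, to 4332 ± 3020 against 500.9 ± 95.8 in IM, 8.65-fold by means and 2.69 on the log2 scale (SE 0.61, adjusted p = 0.0412). The sNAM call ended with a pseudocount of 10 (adjusted p = 0.122), without the filter on low values (0.0556), with edgeR on the 2 groups alone (0.0777) and without any 1 of sNAM replicates 1, 2 and 3, IM replicates 1 and 3 or injNAM replicate 3 (0.051 to 0.211). Without sNAM replicate 2, the library at 7810, the sNAM mean was 2594 and the fold 5.18. That library had 5636251 reads and its 8 mast cell markers summed to 1850 CPM, against 0.161 and 134 in the other sNAM libraries, where none of the 8 was at 0 throughout the group, and 543 to 707 in IM. The summed dendritic cell markers were 1620 to 2610 CPM in sNAM, with none of the 12 at 0 throughout, against 122 to 158 in IM, where Btla was at 0, and the part of either marker list in the result was not tested.

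The change of Clec12a with injury ran in opposite directions by group mean in the 2 populations. Means were 2258 ± 1150 in injNAM and 4332 ± 3020 in sNAM, a log2 difference of -0.84 (SE 0.75, adjusted p = 0.914), against the rise of 1.25 in injIM. The injNAM and sNAM libraries overlapped, and without sNAM replicate 2 the sNAM mean was 2594. With 1 library left out in turn, the log2 difference of injNAM against sNAM ran from -1.19 to -0.32. The difference between the responses of the 2 populations was -2.09 (SE 0.77), with an unadjusted p of 0.0139 and an adjusted p of 0.839. DESeq2 called it at -2.38 (adjusted p = 0.0308), as it did 6.17% of all genes. The log2 difference of Clec12a in recNAM against injIM was 0.34 (SE 0.24, adjusted p = 0.496).

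Per length, the order of the receptors differed between populations. In IM, Cd209d led with a level of 8460 ± 3670 per kilobase of exon, followed by Mrc1 at 6030 ± 634, Cd209a at 4490 ± 2110 and Cd209b at 3100 ± 930. The ranges of neighbours in this order overlapped. Within each IM library Mrc1 exceeded Cd209a and Cd209a exceeded Cd209b, whereas Mrc1 exceeded Cd209d in IM replicate 2 only. Cd209f followed at 1040 ± 401, Clec7a at 295 ± 52.7, Cd209g at 192 ± 81.9, Mgl2 at 125 ± 20.4 and Clec12a at 90.6 ± 17.3. In recNAM, Mrc1 at 2200 ± 210 and Clec7a at 2000 ± 368 led. Their ranges overlapped, and within each recNAM library Mrc1 was the higher, at 1.05, 1.28 and 1.01 times the level of Clec7a. Cd209a at 724 ± 80.0, Cd209d at 573 ± 75.1 and Clec12a at 309 ± 45.8 came next, and Cd209b was at 49.6 ± 29.3. These orders depend on the exon lengths used, 0.919 kb for Cd209d and 6.37 kb for Mrc1, and the authors' annotation is not given. By value, Mrc1 in IM was at 38400 ± 4040 and Cd209d at 7776 ± 3370.

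The level of Mrc1 relative to that of Clec7a separated the interstitial from the nerve-associated libraries. The ratio, per kilobase in the same library, was 1.05, 1.28 and 1.01 in recNAM, 2.68, 0.842 and 1.06 in injNAM, 2.62, 3.33 and 2.47 in sNAM, 11.4, 9.51 and 7.14 in injIM and 16.6, 18.3 and 28.6 in IM. The library's scaling factor drops out of this ratio. Interstitial macrophages held a higher ratio than any nerve-associated library, and injIM did not overlap IM. The ratio was formed after the values had been seen and is given with no test.

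**Figure D4:**
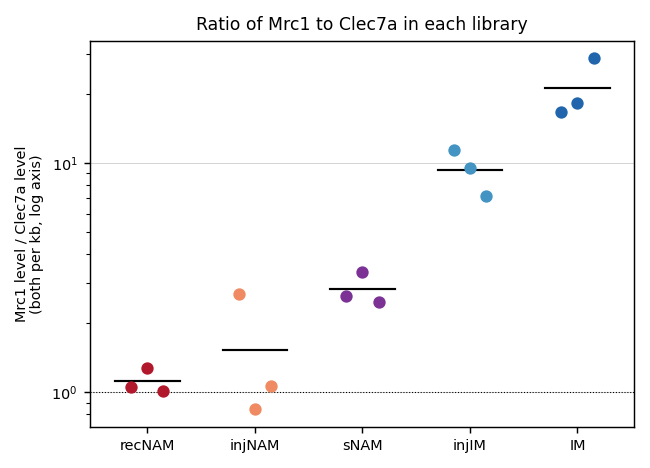
Ratio of the level of Mrc1 to the level of Clec7a, both per kilobase of exon (vertical axis, log scale), in each library of recNAM, injNAM, sNAM, injIM and IM (horizontal axis), with bars at group means and a dotted line at equal levels. The recNAM libraries lie at 1.01 to 1.28 and the IM libraries at 16.6 to 28.6.

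Among 39 other C-type lectin genes listed, 22 were tested. In injIM against IM 1 was called higher and 3 lower, with a median log2 difference of -0.13 beside 0.03 for all tested genes, and the background for calls was again 8.18%. Besides Cd209c, these were Clec4n (dectin-2, a mannan receptor), with 9138 ± 971 in injIM and 12120 ± 454 in IM (-0.41, adjusted p = 0.0151), Cd207 (langerin), with 170.9 ± 93.7 in injIM and 610 ± 359 in IM (-1.30, adjusted p = 0.0263, groups overlapping), and Clec4e (Mincle), with 18640 ± 3040 in injIM and 13630 ± 1080 in IM (0.44, adjusted p = 0.0468). The Clec4e call ended with TMM factors and in 10 of the 15 fits that left out 1 library, and the Cd207 call ended in 4 of them. The Clec4n call ended in 3 of them and in both fits on the 2 groups alone. The 4 Langerhans cell markers, Cd207 among them, summed to 9.26 to 18.6 CPM in injIM and 18.3 to 67.6 in IM, with none at 0 throughout, and their part in the result was not tested.

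Of the 22 in recNAM against injIM 4 were called higher and 1 lower, against 3.19% higher and 4.34% lower of all tested genes, with a median of 0.22 beside -0.02 for all tested genes. Cd72, an inhibitory lectin known from B cells, rose to 1494 ± 192 in recNAM against 355 ± 90.5 in injIM (1.82, adjusted p = 3.37e-05), and the call held when any 1 library was left out. Klrk1 (NKG2D) had 267.8 ± 199 in recNAM and 33.11 ± 13.2 in injIM (1.34, adjusted p = 0.00814), Klrb1b had 307.4 ± 175 in recNAM and 69.81 ± 22.1 in injIM (1.18, adjusted p = 0.00967), and Clec4n had 12440 ± 1290 in recNAM and 9138 ± 971 in injIM (0.44, adjusted p = 0.0349). Colec12, a scavenger receptor with a lectin domain, had 785.5 ± 431 in recNAM and 2017 ± 795 in injIM (-1.31, adjusted p = 0.0326, groups overlapping). The Clec4n and Colec12 calls each ended in 4 and the Klrb1b call in 2 of the 15 fits that left out 1 library. None of the 22 was called in the other comparisons. By value Cd72, Klrk1 and Klrb1b also exceeded IM in sNAM and injIM in injNAM without overlap (9.57% and 8.92% of all genes). Cd72 had 1482 ± 570 in sNAM and 1451 ± 371 in injNAM, Klrk1 had 1412 ± 757 and 817.7 ± 565, and Klrb1b had 503.5 ± 158 and 694.7 ± 362. The 7 T and NK cell markers summed to 3.23 to 10.7 CPM in recNAM and 19.3 to 454 in injNAM, against 2.06 to 4.19 in injIM. In sNAM they summed to 9.58 to 393 CPM, against 3.69 to 6.05 in IM. Cd2 was at 0 throughout every group. The part of these markers was not tested.

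Of 32 genes that act downstream of these receptors, 28 were tested. In injIM against IM 2 were called higher and 2 lower, against 4.15% higher and 4.03% lower of all tested genes, and the median of the 28 was -0.08, beside 0.03 for all. Syk, the kinase that Clec7a uses, rose to 6673 ± 878 in injIM against 4518 ± 222 in IM (0.55, adjusted p = 0.0036), and Nfatc1, a transcription factor activated by calcium signalling, rose to 5033 ± 2130 in injIM against 1267 ± 243 in IM (1.83, adjusted p = 0.000144). Nfkb1 fell to 4683 ± 495 in injIM against 7495 ± 118 in IM (-0.67, adjusted p = 0.00506), and Il10, which encodes an anti-inflammatory cytokine, fell to 2961 ± 712 in injIM against 6394 ± 1710 in IM (-1.08, adjusted p = 0.000895). All 4 calls held when any 1 library was left out.

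Of the 28 in recNAM against injIM 4 were called higher and 1 lower, against 3.19% higher and 4.34% lower of all tested genes, and the median was 0.09, beside -0.02 for all. Map3k14, a kinase of the non-canonical NF-kB pathway, rose to 1447 ± 423 in recNAM against 374.7 ± 54.8 in injIM (1.68, adjusted p = 0.000846), and Lyn, a Src-family kinase, rose to 10920 ± 1770 in recNAM against 6986 ± 209 in injIM (0.63, adjusted p = 0.00812). Rel rose to 5214 ± 1390 in recNAM against 3096 ± 814 in injIM (0.73, adjusted p = 0.0339), and Cybb, a subunit of the phagocyte NADPH oxidase, rose to 15590 ± 887 in recNAM against 11070 ± 485 in injIM (0.49, adjusted p = 0.0381). Il10 fell to 1397 ± 350 in recNAM against 2961 ± 712 in injIM (-1.03, adjusted p = 0.00767). Leaving out 1 library ended the Rel call in 3, the Cybb call in 8 and the Il10 call in 2 of 15 fits. None of the 28 was called in the other comparisons. With the pooled spread and with edgeR on recovered reads, none of the calls on the other lectins and downstream genes in these paragraphs remained.

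Across the 15 libraries, which share groups and mice, the members split by sign. On log2(value + 100), Mrc1 correlated with Clec12a at -0.919 and with Clec7a at -0.669, and Cd209f with Cd209g at 0.901. The tested genes outside the members most like Mrc1 were Agmo (r = 0.936), Agfg1 (0.923) and F13a1 (0.921), and those most like Clec7a were Gcnt2 (0.897), Svbp (0.893) and Lpar6 (0.889). For Clec12a they were Maf1 (0.961), Coro1a (0.924) and Cd52 (0.896), and for Mgl2 Tmbim1 (0.944), Sdc4 (0.909) and Cxcl13 (0.903). For Cd209a they were Srsf2 (0.938), Cd81 (0.881) and Spryd7 (0.845), for Cd209b Npl (0.928), Eif1a (0.921) and Mt2 (0.92), and for Cd209d P3h2 (0.944), Maoa (0.923) and Coro2b (0.919). For Cd209f they were Pla2g2d (0.974), Chp2 (0.962) and Cavin1 (0.951), and for Cd209g Trpm1 (0.965), Cpne8 (0.945) and Mt2 (0.922). These values describe 15 libraries whose groups differ and some of which hold members at 0.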

How the data were processed

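RNA-seq was done on 15 libraries of sorted mouse ear skin macrophages. The input of each library was 250 pg of RNA, amplified in 13 PCR cycles with the SMARTer Ultra Low Input kit v4 before Nextera XT preparation, per the labels' protocols. The tools listed in the submitters' processing notes are STAR 2.7.2b, cutadapt, bcl2fastq 2.18 and, in R 3.6.1, DESeq2 1.24.0, with build mm10. How reads were counted, the annotation and the use of strand are not given in those sources, so antisense reads may be included in a gene's value.

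The deposited signal per gene is a normalised read count, scaled by the authors with a single factor in each library. In each library 100% of values above 0 lay within 0.01 of whole multiples of the smallest value, and dividing by it gave recovered reads. Replicates were kept apart, since no 2 libraries of a group agreed within sampling noise (lowest chi-square per degree of freedom 32.17).

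limma 3.58.1 in R 4.3.3 (trend, robust moderation, 1 weight per group: recNAM 1.67, injNAM 0.311, sNAM 0.175, injIM 3.21, IM 3.43) was fitted to log2(value + 100) of the 8656 genes with mean 100 or more, with Benjamini-Hochberg adjustment per comparison. The tests treat the libraries as independent, although they came from 3 mice. edgeR 4.0.16 and DESeq2 1.42.0 ran on recovered reads as alternatives. Levels per length used exon lengths of GENCODE M21 (GRCm38, the assembly that mm10 names). Named genes were all members, the genes of 2 fixed lists called in a comparison, and the 3 genes most correlated with each member. The members and lists were chosen with earlier results of these data known. Cd209e was named after its values had been seen.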

Additional observations from a re-analysis of the deposited data

How the results depend on the processing

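The count of the 9 tested receptors called changed with the settings. In sNAM against IM the count of 1 became 0 with a pseudocount of 10, 0 without the filter on low values, 5 with 1 pooled spread, 2 with edgeR and 3 with DESeq2 on recovered reads, and 0 with edgeR and 2 with limma on the 2 groups alone. In injIM against IM the count of 9 became 2 without the filter, 0 with the pooled spread, edgeR or DESeq2, and 3 with edgeR and 5 with limma on the 2 groups alone. In recNAM against injIM the count of 6 became 3 without the filter and 1 with the pooled spread, edgeR or DESeq2. In injNAM against injIM the count of 1 became 0 in both fits on the 2 groups alone, which were chosen after seeing the data. DESeq2 gave 1 in injNAM against sNAM and 1 in the difference of injury responses, against 0. Leaving out 1 library gave 0 to 2 calls in sNAM against IM, 6 to 9 in injIM against IM, 0 to 1 in injNAM against injIM, 5 to 7 in recNAM against injIM and 0 to 0 in the other 3 comparisons. The fewest calls in injIM against IM came without IM replicate 3 (6) and in recNAM against injIM without recNAM replicate 1 (5). Over all tested genes, a pseudocount of 10 gave 0 calls in sNAM against IM, against 91, and no filter gave 120 there, 315 in injIM against IM, against 708, and 362 in recNAM against injIM, against 652. Leaving out 1 library gave 0 to 107 calls over all genes in sNAM against IM, with 0 without sNAM replicate 1, 399 to 826 in injIM against IM, 2 to 75 in injNAM against injIM, 272 to 899 in recNAM against injIM, 0 to 1 in injNAM against sNAM, 0 to 42 in recNAM against injNAM and 0 to 0 in the difference of injury responses. The cause of these changes was not tested.

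Signs that turned belonged to uncalled differences. In recNAM against injNAM, Mrc1 was 0.036 with TMM factors, 0.003 with edgeR and 0.01 with edgeR on the 2 groups alone, and Cd209f was 0.638 with a pseudocount of 10. The difference of injury responses of Cd209g was -1.496 with edgeR and -1.534 with DESeq2. With 1 library left out, in injNAM against sNAM Mrc1 ran from -0.119 to 0.417, Cd209b from -1.763 to 0.377, Cd209f from -1.084 to 0.871 and Cd209g from -1.095 to 0.257. In recNAM against injNAM Mrc1 ran from -0.208 to 0.279, Cd209b from -1.616 to 0.524, Cd209f from -0.689 to 0.604, Cd209g from -0.119 to 0.311 and Clec12a from -0.685 to 0.093. Mgl2 ran from -0.657 to 0.009 in sNAM against IM, from -0.108 to 0.152 in injNAM against injIM and from -0.027 to 0.639 in the difference of injury responses.

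Whether a shared replicate number stands for the same mouse is not stated in the labels, and the main fit had no replicate term. Of 18 pairs of same-numbered libraries, 7 had deviations correlated above 0.1 (range -0.021 to 0.388). Among libraries of other groups, 12 of 15 libraries correlated best with one of their own number. With the replicate block the counts of receptors called were 1 in sNAM against IM, 9 in injIM against IM, 1 in injNAM against injIM, 6 in recNAM against injIM and 0 in the other comparisons, and no call changed among 63 differences. Over all tested genes the block gave 100 calls in sNAM against IM, against 91, and 928 in injIM against IM, against 708. It gave 70 in injNAM against injIM, against 42, and 1211 in recNAM against injIM, against 652. TMM factors changed no receptor call, and with them the median of all tested genes was -0.293 in sNAM against IM, beside -0.259. The depth of the sNAM libraries, 5636251 to 18632984 reads, limits what can be said of receptors at 0 there.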
